A study of Cucurbita pepo with 23 samples.

Results

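The floral nectaries of female squash flowers collected at -24 hr, 24 hr before anthesis, were compared with those of male flowers of the same stage. The comparison covered all 8861 genes of the deposited table, each with a value in 3 female and 3 male libraries, 6 of the 23 libraries of the series. The plants were Cucurbita pepo of the Crookneck Yellow variety, untreated and of 1 genotype, and the nectaries of both sexes were dissected by hand from buds that were still closed. The remaining libraries were used for the shared estimate of spread and for the later stages: -15 hr (2 female, 3 male), 0 hr (3 and 3) and +9 hr (3 and 3), where the labels give 12 hr before and 12 hr after for the second and the last. Nothing in the labels says that replicates came from separate plants, so p-values measure the spread between these samples, which may be technical. In whole tissue, fewer cells of a type and less RNA per cell cannot be told apart.

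A nectary is a gland that loads sugar into nectar. In many species it stores starch while the bud grows and breaks it down near anthesis, resynthesizes sucrose in the cytosol, and exports it through the plasma-membrane carrier SWEET9, after which the cell-wall invertase CWINV4 cleaves it outside the cell. MYB305 is a transcription factor of floral nectaries in tobacco, where it is required for starch metabolism and nectar secretion. Squash is monoecious, with flowers of both sexes on each plant, and the nectary sits at the base of the style in the female flower and on the floor of the cup under the stamens in the male flower.

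The stretches that the study's RT-PCR primers amplify are shown for a nectary regulator, the cell-wall invertase and a starch branching enzyme, because these are the squash sequences behind 3 of the values below. They were cut from the squash contigs listed with the primers, in the orientation whose reading frame runs open through the stretch, with the primer sites in capitals. They were not placed on a genome.
CpMYB305 (XM_008445303.1): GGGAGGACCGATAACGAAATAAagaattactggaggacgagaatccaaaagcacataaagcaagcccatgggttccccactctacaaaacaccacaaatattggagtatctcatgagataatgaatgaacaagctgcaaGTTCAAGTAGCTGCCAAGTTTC
CpCWINV4 (XM_008446238.1): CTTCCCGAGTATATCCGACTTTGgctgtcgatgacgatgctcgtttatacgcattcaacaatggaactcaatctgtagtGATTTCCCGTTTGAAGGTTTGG
CpSBE2, described in melon as branching enzyme 1 (XM_008466627.1): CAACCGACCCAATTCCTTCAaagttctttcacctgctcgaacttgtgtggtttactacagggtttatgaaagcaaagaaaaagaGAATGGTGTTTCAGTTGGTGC

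Values are upper-quartile normalized reads per gene, rounded by the authors, and each gene is named by its best match in melon. The summed values were 10947603, 11079251 and 9748274 in the female libraries and 13286954, 13088284 and 13436007 in the male libraries. The 10 highest genes held 6.46 to 7.04% of the female sums and 11.5 to 13% of the male sums. Read depth before normalization was not used here, so no counting interval is given.

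Female and male nectaries differed more at -24 hr than at any later stage. With limma, 2181 genes (24.6% of those tested) were called higher in female nectaries and 1472 (16.6%) lower, taking 2-fold as the smallest change and 0.05 as the bound on the adjusted p, which together makes 41.2% of genes. At -15 hr the same fit called 8 higher (0.0903%) and 4 lower (0.0451%), at 0 hr 16 (0.181%) and 6 (0.0677%), and at +9 hr 741 (8.36%) and 564 (6.36%). The female -15 hr group has 2 libraries, which lowers the power of that comparison. The median difference over all genes at -24 hr was 0.13 on the log2 scale, female minus male. Quantile normalization moved that median by -0.18 and gave 1803 genes higher and 1833 lower, so that 49.6% of calls were higher, against 59.7% with the authors' scaling.

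All 3 female libraries lay above all 3 male libraries for 3376 genes (38.1%) and below them for 2557 (28.9%). Among the called genes, the groups did not overlap for 2141 of the 2181 higher and 1418 of the 1472 lower. A log2 difference of at least 4 was reached by 189 of the higher and 122 of the lower genes, and of at least 8 by 1 and 12. Genes called higher in female nectaries made up 41.4, 35.7 and 24.8% of the summed values of the female libraries, against 6.13, 6.19 and 5.73% in the male libraries. Genes called lower made up 9.82, 12.6 and 18% of the summed values of the female libraries, against 49.0, 47.1 and 49.9% in the male libraries. These shares, and the overlap counts of called genes, come from the same values as the calls and are not independent of them.

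Pairs of libraries were compared by the root mean square log2 difference over all genes. Female and male libraries at -24 hr were 1.53 to 2.02 apart, against 0.44 to 0.96 among the female libraries and 0.51 to 0.63 among the male libraries. At -15 hr the distance between the sexes was 0.66 to 0.93, against 0.75 between the 2 female libraries and 0.66 to 0.79 among the male libraries, so the ranges overlapped but the largest distances were between the sexes. The female -24 hr libraries were 1.57 to 1.99 from the female -15 hr libraries, whereas the male -24 hr libraries were 0.79 to 0.94 from those same female -15 hr libraries and 0.81 to 1.1 from the male -15 hr libraries. The nectary's own progress at the collection, the hour of collection and the dissection cannot be told apart from sex at -24 hr, and each difference below is a difference between the female and male libraries in that sense.

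**Figure D1:**
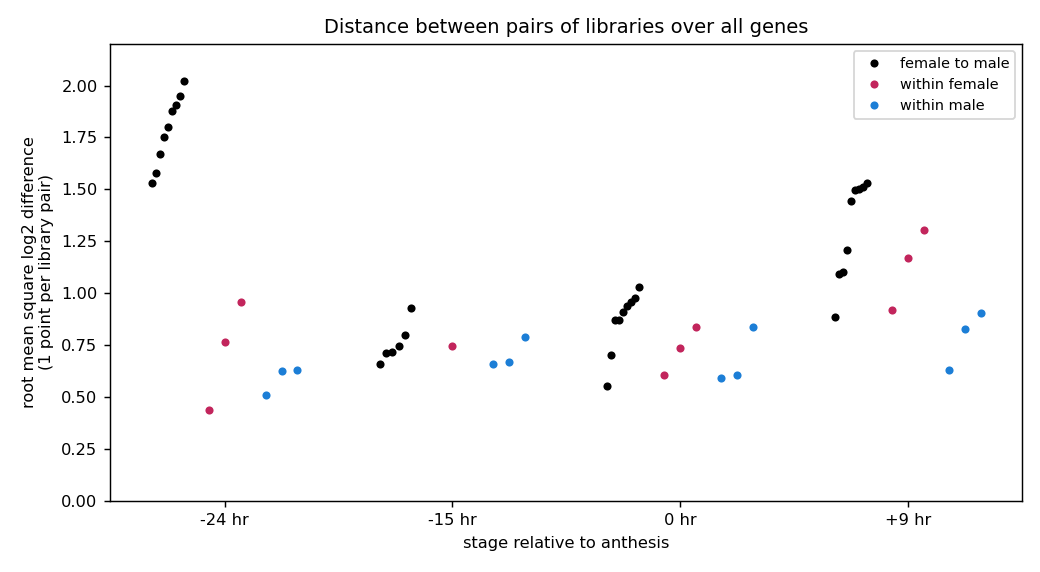
Root mean square log2 difference between pairs of libraries over all genes, by stage relative to anthesis (x axis), for female to male pairs (black), pairs of female libraries (red) and pairs of male libraries (blue). At -24 hr every female to male pair (1.53 to 2.02) lies above every pair within a sex (0.44 to 0.96), while at -15 hr the 3 kinds of pair overlap.

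Female replicate 3 stood between the other female libraries and the male ones. It was 0.96 and 0.76 from female replicates 1 and 2, which were 0.44 from each other, and it was the female library nearest to the male values in 1615 of the 2181 higher genes (74.0%) and 1003 of the 1472 lower genes (68.1%). Without it, 2229 genes were called higher and 1632 lower.

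Regulatory and sugar-export genes known from nectaries of other species were lower in female than in male nectaries at -24 hr. MYB305 (XM_008445303.1) had values of 37, 64 and 37 in female libraries, against 47096, 41446 and 44062 in male libraries, a log2 difference of -9.92 ± 0.68 (SE; limma adjusted p = 1.7e-09). SWEET9, annotated NEC1-like in melon (XM_008443590.1), had 136, 220 and 165 in female libraries, against 151449, 44688 and 107888 in male libraries (log2 difference -9.04 ± 0.93, limma adjusted p = 2.7e-07). CWINV4, annotated CWINV3-like in melon (XM_008446238.1), had 649, 970 and 387 in female libraries, against 8568, 10110 and 8374 in male libraries (log2 difference -3.84 ± 0.58, limma adjusted p = 2.1e-05). No female library overlapped a male one in any of the 3. No entry of the table is described as CRABS CLAW, the YABBY factor that is needed for nectary formation in Arabidopsis. The female tissue of this stage, labelled as nectary, thus held MYB305 and SWEET9 at low levels.

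At -15 hr, female nectaries held both at high levels. MYB305 ranged over 48362 to 58835 in female libraries and 49533 to 69687 in male libraries at that stage. SWEET9 ranged over 188998 to 292544 in female libraries and 366606 to 543926 in male libraries. At 0 hr, when nectar is secreted, MYB305 ranged over 90598 to 104104 and SWEET9 over 269060 to 356879 in female libraries. CWINV4 took another course, with 13577 to 62378 in female libraries and 40162 to 52803 in male libraries at -15 hr, and 422 to 1300 in female libraries and 866 to 4621 in male libraries at 0 hr. Its female level at 0 hr was thus close to that at -24 hr, and a low value of CWINV4 does not set the -24 hr tissue apart. None of the 3 was called between the sexes at -15 hr. The sex difference at -24 hr differed from the mean sex difference of the later stages for MYB305 (by -9.64 on the log2 scale, limma adjusted p = 4.1e-08), SWEET9 (-7.53, 2.2e-05) and CWINV4 (-3.06, 0.0013).

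**Figure D2:**
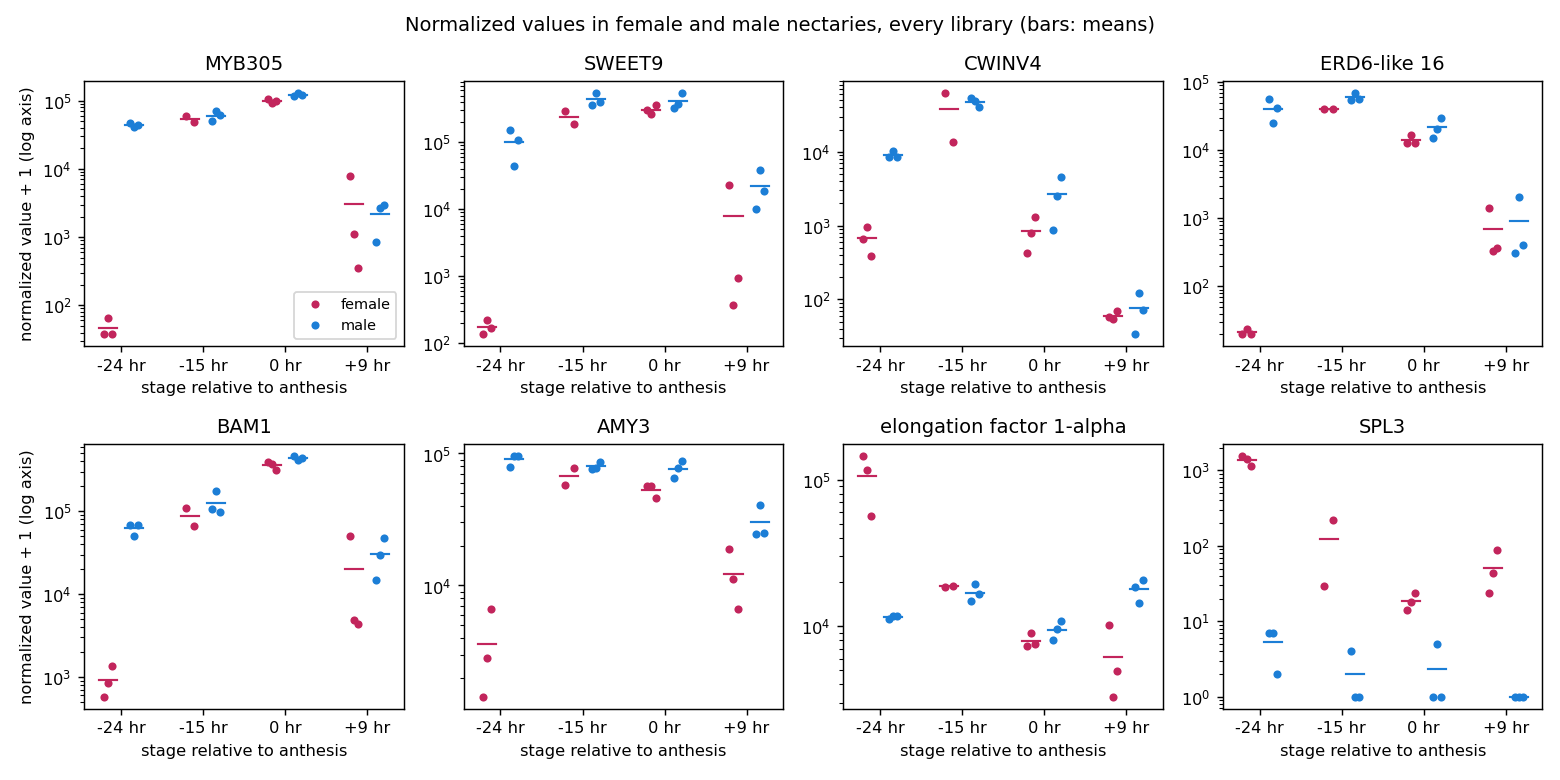
Normalized value plus 1 (log axis) of 8 genes in every library, by stage relative to anthesis, for female (red) and male (blue) nectaries, with bars at the group means. At -24 hr the female libraries lie below the male ones for MYB305, SWEET9, CWINV4, ERD6-like 16, BAM1 and AMY3 and above them for elongation factor 1-alpha and SPL3, and at -15 hr only SPL3 of these genes was called between the sexes.

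Enzymes that break down starch were lower in female nectaries. Of the 10 genes of starch degradation, 8 were called lower (80%, against 16.6% of all genes) and none higher. Their median log2 difference was -2.17, against 0.13 over all genes. Their share of the library was 1.13, 2.07 and 3.10% in female nectaries, against 5.59, 6.36 and 7.22% in male nectaries. Beta-amylase 1 (BAM1, XM_008440214.1), which releases maltose in the plastid, had 578, 842 and 1375 in female libraries and 67422, 50399 and 68420 in male libraries (log2 difference -6.13 ± 0.66, limma adjusted p = 4.7e-07). Alpha-amylase 3 (AMY3, XM_008448092.1), an endo-acting plastid amylase, had 1436, 2839 and 6599 in female libraries and 78908, 96030 and 95504 in male libraries (-4.90 ± 0.44, limma adjusted p = 5.8e-08). The highest female value lay below the lowest male value for both amylases.

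The steps on either side of the amylases moved the same way by smaller amounts. The glucan water dikinase that phosphorylates the granule (XM_008447957.1) differed by -2.24, the phosphatase LSF2 (XM_008458697.1) by -2.04, the debranching pullulanase 1 (XM_008448594.1) by -2.36 and the neutral alpha-glucosidase C (XM_008450356.1) by -1.30 on the log2 scale. The plastid maltose exporter MEX1 (XM_008464630.1) had 6699, 8061 and 9706 in female libraries and 26606, 37682 and 41280 in male libraries. DPE2 (XM_008457528.1), which uses maltose in the cytosol, had 22057, 42434 and 35705 in female libraries and 158315, 192161 and 212083 in male libraries. The 2 members that were not called were phosphoglucan water dikinase (XM_008455784.1, log2 difference -0.36) and the alpha-glucan phosphorylase (XM_008465841.1), which had 60717, 102947 and 151019 in female libraries and 225920, 259972 and 296743 in male libraries, with a limma adjusted p of 0.12. Without female replicate 1, the alpha-glucosidase was no longer called (log2 difference -0.91, limma adjusted p = 0.062), and quantile normalization ended the calls of the alpha-glucosidase (-0.80) and of glucan water dikinase (-1.14), leaving 6 of 10.

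Starch synthesis did not follow as a whole. Of 7 genes, 2 were called lower (28.6%, against 16.6% of all genes) and none higher, and the median was 0.42. Their share of the library was 0.311, 0.430 and 0.648% in female nectaries, against 0.482, 0.676 and 0.659% in male nectaries, so the ranges overlapped. The called members were the small subunit of ADP-glucose pyrophosphorylase (AF030382.1), with 3325, 5230 and 5267 in female libraries and 12656, 10016 and 15105 in male libraries, and branching enzyme 1 (XM_008466627.1), with 8328, 14356 and 27439 in female libraries and 34407, 55482 and 53506 in male libraries. Branching enzyme 1 was not called without female replicate 1 (log2 difference -1.24, limma adjusted p = 0.080). Quantile normalization ended both calls (-1.14 for the pyrophosphorylase, -0.97 for the branching enzyme) and called 1 other member higher. Starch synthase 3 (XM_008442822.1) had 2011, 2757 and 2527 in female libraries and 1133, 1411 and 1897 in male libraries, without overlap, at a limma adjusted p of 0.054.

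Sucrose synthesis was lower in female nectaries in 5 of 7 genes (71.4%, against 16.6% of all genes), with a median of -1.67. Sucrose-phosphatase 1 (XM_008444746.1), the last step of the pathway, had 9965, 19315 and 20996 in female libraries and 112157, 92807 and 78885 in male libraries. Sucrose-phosphate synthase 1 (XM_008445712.1) differed by -1.67 ± 0.31 and UDP-glucose pyrophosphorylase (DQ445483.1) by -1.95 ± 0.40 on the log2 scale, with limma adjusted p of 2e-04 and 0.00048. Sucrose-phosphate synthase 2 (XM_008458932.1) had 27544, 44036 and 54801 in female libraries and 188267, 203315 and 202237 in male libraries, but the spread estimated for it over all stages was wide (SE 0.81, limma adjusted p = 0.023). That call was lost without female replicate 1 (0.085), male replicate 2 (0.053) or male replicate 3 (0.053). Hexokinase-1-like (XM_008460627.1) was also lost without female replicate 1 (0.068), and quantile normalization left 3 of the 7 genes called.

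**Figure D3:**
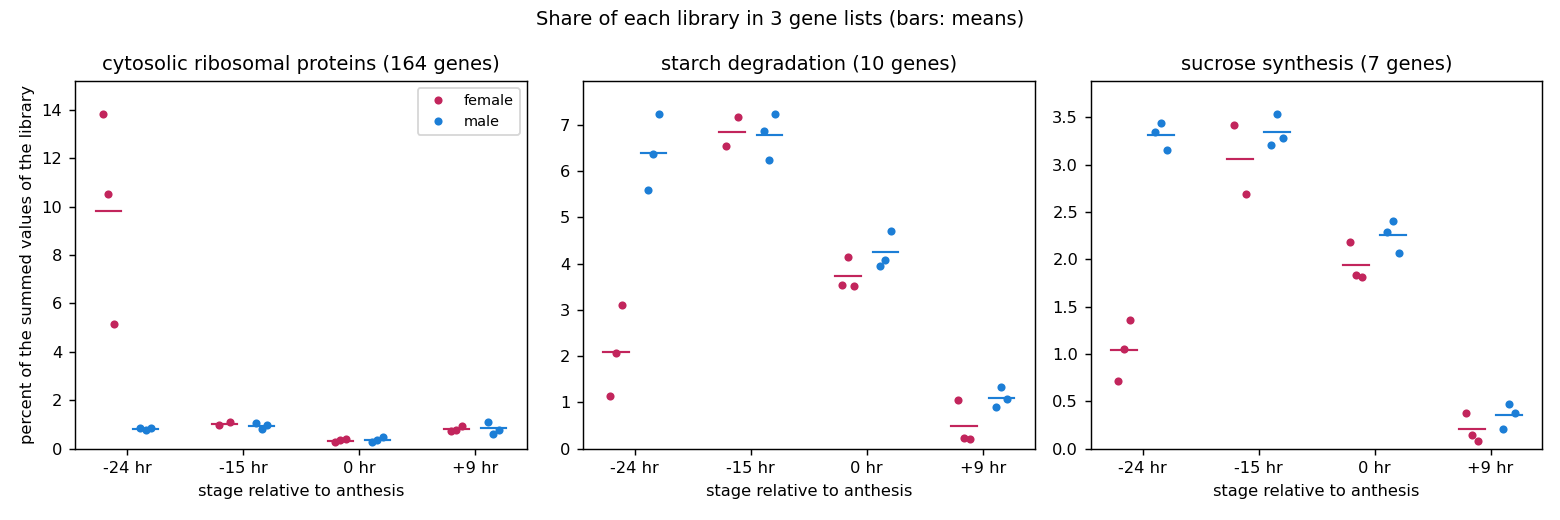
Percent of the summed values of each library in cytosolic ribosomal proteins, starch degradation and sucrose synthesis, by stage relative to anthesis, for female (red) and male (blue) nectaries, with bars at the group means. At -24 hr ribosomal proteins hold 5.14 to 13.8% of female libraries and 0.761 to 0.867% of male libraries, while the female shares of the other lists lie below the male ones.

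Among 12 sucrose synthases and invertases, 9 were lower in female nectaries (75%, against 16.6% of all genes) and 1 was higher (8.33%, against 24.6%). Sucrose synthase 5 (XM_008464945.1) had 505, 1457 and 5824 in female libraries and 40535, 25023 and 17389 in male libraries. Invertase 2 (FJ231520.1) had 3707, 7110 and 3255 in female libraries and 49655, 36154 and 30773 in male libraries. The exception was a second sucrose synthase (XM_008452746.1), with 212, 230 and 177 in female libraries and 7, 3 and 6 in male libraries (log2 difference 5.08 ± 0.45, limma adjusted p = 4.9e-08). The sucrose synthase paralogs thus differed in direction between the sexes. All 5 genes of the cytosolic invertases CINV1 and CINV2 were called lower, and CINV1 (XM_008448549.1) differed by -2.99 on the log2 scale. Of the 4 SWEET carriers, SWEET9 alone was called.

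A sugar carrier other than SWEET9 was also far lower in female nectaries. Of 9 raffinose-family genes, 2 were called higher and 2 lower (22.2% each), against 24.6% and 16.6% of all genes. ERD6-like 16 (XM_008440551.1), named for a family of vacuolar monosaccharide carriers in Arabidopsis, had 19, 23 and 19 in female libraries and 56124, 25186 and 41017 in male libraries. Its log2 difference of -10.83 ± 0.56 (limma adjusted p = 5e-11) was the largest of the genes named here. SIP2 (XM_008462536.1), described in melon as galactinol-sucrose galactosyltransferase 2, is given by the study as a putative alpha-galactosidase. It had 3460, 12713 and 58069 in female libraries, most of it in replicate 3. In male libraries it had 177707, 190447 and 164585 and was among the 5 highest genes. A paralog with the same description (XM_008466274.1) went the other way, with 326, 302 and 270 in female libraries and 57, 76 and 53 in male libraries. The galactosyltransferase 6 of the same family (XM_008445736.1) was not called (limma adjusted p = 0.15).

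The protein synthesis machinery was higher in female nectaries. Of 164 cytosolic ribosomal protein genes, 161 were called higher (98.2%, against 24.6% of all genes) and none lower. Their median log2 difference was 3.15, with quartiles of 2.68 and 3.73. They held 13.8, 10.5 and 5.14% of the summed values of female libraries, against 0.867, 0.761 and 0.850% in male libraries. The subunits did not separate, since 61 of 62 genes of the small subunit and 96 of 98 of the large subunit were called, with medians of 3.10 and 3.23. The 40S protein S18 (XM_008458525.1) had 8515, 6389 and 2855 in female libraries and 200, 245 and 192 in male libraries (log2 difference 4.66 ± 0.31, limma adjusted p = 9.5e-10). The members that were not called were S21-2 (XM_008440661.1, 0.65), the L18a-like protein (XM_008454218.1, 0.80) and L37a (XM_008467686.1, 0.38), named after their values were seen. Female replicate 3 was the lowest of the female libraries in this share, and leaving it out again gave 161 genes, with a median of 3.63.

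Genes upstream of the finished ribosome followed. Ribosome biogenesis and nucleolar genes were higher in 30 of 38 (78.9%, against 24.6% of all genes) and lower in 1, with a median of 2.46. The pescadillo homolog (XM_008464300.1), which acts in maturation of the large subunit, had 2553, 1813 and 1018 in female libraries and 133, 100 and 94 in male libraries. Nucleolar protein 56-like (XM_008466248.1), a core protein of the particles that methylate ribosomal RNA, had 1092, 738 and 343 in female libraries and 14, 8 and 15 in male libraries. Both were highest in female replicate 1 and lowest in female replicate 3.

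Translation factors were higher in 23 of 43 (53.5%, against 24.6% of all genes) and lower in 1, with a median of 1.05. Elongation factor 1-alpha (XM_008459007.1), which delivers aminoacyl-tRNA to the ribosome, was among the 5 highest genes of female nectaries, with 145753, 117004 and 56402, against 11258, 11784 and 11658 in male libraries (log2 difference 3.09 ± 0.35, limma adjusted p = 8.3e-07). At -15 hr it ranged over 18618 to 18914 in female libraries and 14816 to 19413 in male libraries. Initiation factor 1A-like (XM_008457276.1) was the member called lower, at -1.52.

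Plastid ribosomal proteins were higher in 28 of 34 (82.4%, against 24.6% of all genes) and lower in 2, with a median of 2.27. L17 of the plastid ribosome (XM_008444085.1) had 1237, 1194 and 730 in female libraries and 20, 26 and 34 in male libraries. Plastid L12 (XM_008445304.1) was far to the other side, with 530, 384 and 259 in female libraries and 23680, 20312 and 29312 in male libraries (log2 difference -6.01 ± 0.34, limma adjusted p = 1.4e-10). Plastid L1 (XM_008463600.1) was also called lower, with 247, 173 and 86 in female libraries and 851, 719 and 290 in male libraries (log2 difference -1.86 ± 0.74, limma adjusted p = 0.042). The call of L1 was lost without female replicate 2 (0.072) or 3 (0.15), and without male replicate 1 (0.14) or 2 (0.11).

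Amino acid synthesis was higher in 49 of 73 genes (67.1%, against 24.6% of all genes) and lower in 7, with a median of 1.75. Threonine synthase 1 (XM_008452933.1) had 1510, 1261 and 604 in female libraries and 27, 14 and 20 in male libraries. Acetolactate synthase 3 (XM_008466204.1), the entry to the branched-chain amino acids, had 951, 825 and 501 in female libraries and 45, 35 and 23 in male libraries. Argininosuccinate synthase (XM_008441324.1), of arginine synthesis, differed by 3.28 ± 0.28 on the log2 scale. Going against the list, a glutamine synthetase (XM_008463150.1) had 270, 423 and 232 in female libraries and 3219, 3955 and 3695 in male libraries.

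**Figure D4:**
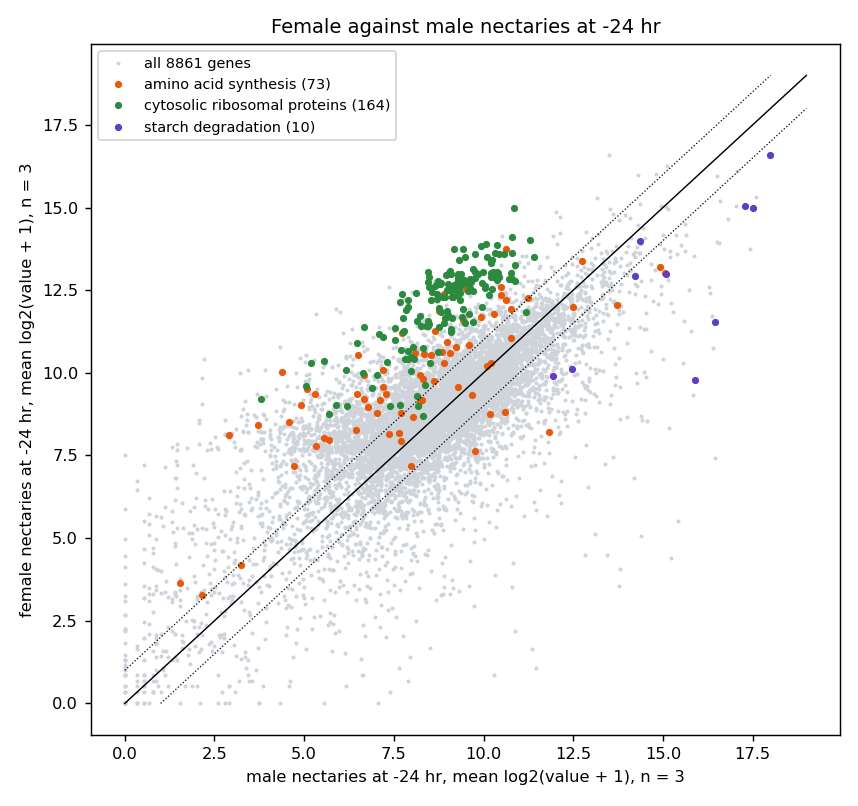
Mean log2(value + 1) of every gene in female (y axis) against male (x axis) nectaries at -24 hr, n = 3 libraries each, with equality as a solid line and a 2-fold difference as dotted lines. Cytosolic ribosomal proteins lie almost all above the upper dotted line (161 of 164 called higher), and 8 of the 10 starch degradation genes were called lower.

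The tricarboxylic acid cycle was lower in 9 of 22 genes (40.9%, against 16.6% of all genes) and higher in none, with a median of -0.70. Mitochondrial citrate synthase (XM_008463012.1) had 4599, 6049 and 3445 in female libraries and 25043, 26827 and 28753 in male libraries. The catalytic subunit 5 of NAD-isocitrate dehydrogenase (XM_008451012.1) differed by -2.34 and the alpha subunit of succinyl-CoA ligase (XM_008469088.1) by -2.33 on the log2 scale. In contrast, the mitochondrial respiratory chain list had 48 of 51 genes that were not called, with a median of -0.18. Its shares were 3.92% higher and 1.96% lower, against 24.6% and 16.6% of all genes. The list does not hold the alternative oxidase (XM_008467260.1), which was far lower in female nectaries and is given after the carriers below.

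Of 30 glycolysis genes, 6 were called higher (20%, against 24.6% of all genes) and 10 lower (33.3%, against 16.6%). Without female replicate 2 the counts were 3 and 11. Under quantile normalization they were 7 and 7, with a median log2 difference of -0.10 against -0.72 in the reported fit, so the lean to lower depended on the scaling. Plastid isozymes of pyruvate kinase were on the higher side. Plastidial pyruvate kinase 1 (XM_008451077.1) had 1884, 1252 and 742 in female libraries and 71, 58 and 54 in male libraries, and plastidial pyruvate kinase 2 (XM_008441095.1) had 832, 500 and 171 against 6, 9 and 11. A cytosolic pyruvate kinase (XM_008451681.1) was lower, at -1.49 ± 0.18. The cytosolic aldolase (XM_008444581.1) had 403, 497 and 357 in female libraries and 24276, 10337 and 38756 in male libraries. Another plastid enzyme, the glyceraldehyde-3-phosphate dehydrogenase GAPCP2 (XM_008448864.1), was lower at -3.71.

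Genes of cell division were called more often higher than lower in female nectaries. Mitotic cyclins, kinesins and related genes were higher in 9 of 31 (29.0%, near the 24.6% of all genes) and lower in 2 (6.45%, against 16.6%). Core histones and replication genes were higher in 10 of 29 (34.5%, against 24.6% of all genes) and lower in 3 (10.3%, against 16.6%). The count for histones and replication rested on single libraries. It was 19 of 29 without female replicate 3, 5 without female replicate 1 or 2, and 6 under quantile normalization, and the list's median against the male mean was 1.42, 1.70 and -0.01 in the 3 female libraries. The mitotic kinase CDKB2-2 (XM_008454797.1) had 1282, 486 and 9 in female libraries and was listed at 0 in all 3 male libraries. The replicative helicase subunit MCM2 (XM_008466938.1) had 437, 357 and 193 in female libraries and 57, 39 and 27 in male libraries. Both were lowest in female replicate 3, where CDKB2-2 was nearly at the male level. Expansins and other wall-loosening genes were higher in 14 of 35 (40%) and lower in 6 (17.1%, against 16.6% of all genes). The counts became 7 higher and 6 lower under quantile normalization, and 9 higher without female replicate 1, female replicate 2 or male replicate 3, where 3, 4 and 5 were lower.

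Developmental regulators were found on both sides, 12 higher (27.3%, against 24.6% of all genes) and 13 lower (29.5%, against 16.6%) of 44. The higher count was 8 without female replicate 3 and under quantile normalization. SPL3 (XM_008444542.1), a squamosa promoter-binding factor of phase change, had 1561, 1415 and 1130 in female libraries and 6, 6 and 1 in male libraries (log2 difference 8.20 ± 0.81, limma adjusted p = 1.7e-07). Its female level fell later but stayed above the male one. It was called higher at -15 hr (28 to 216 against 0 to 3) and +9 hr (23 to 86 against 0), but not at 0 hr (13 to 23 against 0 to 4). SHI RELATED SEQUENCE 1 (XM_008457037.1), of a family that promotes style and stigma development in Arabidopsis, had 388, 664 and 597 in female libraries and 9, 2 and 2 in male libraries. Unlike the other genes with the largest differences, it held its level in female nectaries at -15 hr, with 856 to 924 against 0 to 4 in male libraries, and at 0 hr, with 395 to 462 against 1 to 25. Its sex difference at -24 hr differed from the mean of the later stages by 0.31 on the log2 scale (limma adjusted p = 0.83).

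On the lower side, zinc-finger homeodomain protein 9 (XM_008448127.1) had 2, 0 and 2 in female libraries and 3186, 2257 and 3111 in male libraries. An SVP-like MADS-box gene (XM_008442316.1), of a family that represses flowering in Arabidopsis, had 19, 37 and 33 in female libraries and 1003, 613 and 989 in male libraries. The homeobox gene knotted-1-like 7 (XM_008438972.1) differed by -2.32 ± 0.29 on the log2 scale. The list drawn up for sex determination held a single entry, an ACC synthase (D30805.1) named after its values were seen. It was listed at 0 in all 6 libraries. Its description does not say that it acts in sex determination, so no known sex-determination gene was checked here.

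Hormone genes were called lower more often than higher for jasmonate with abscisic acid and for ethylene. Of 37 genes of abscisic acid and jasmonate, 5 were higher (13.5%) and 15 lower (40.5%), and of 40 genes of ethylene, 4 were higher (10%) and 13 lower (32.5%), against 24.6% and 16.6% of all genes. The 4 ethylene genes called higher became 2 without female replicate 1 or male replicate 3. Against the male mean, the median of the abscisic acid and jasmonate list was -1.17, -0.86 and 0.12 in female replicates 1, 2 and 3. The jasmonate repressor TIFY 5A-like (XM_008453625.1) had 26, 14 and 3 in female libraries and 17116, 11609 and 14045 in male libraries. An ACC oxidase (XM_008450594.1), which makes ethylene, had 421, 451 and 522 in female libraries and 3350, 3119 and 2873 in male libraries. The auxin-synthesis gene YUCCA10 (XM_008463331.1) had 59, 127 and 448 in female libraries and 7429, 22195 and 7532 in male libraries. Among 25 auxin genes, 20% were higher and 28% lower. The gibberellin receptor GID1B (XM_008453192.1) had 39, 39 and 54 against 1152, 1035 and 1241. Its list of gibberellin, cytokinin and brassinosteroid genes had 20% higher and 16.7% lower of 30, near the shares of all genes. Higher in female nectaries were lipoxygenase 6 (XM_008447839.1), with 753, 669 and 558 against 28, 38 and 40 in male libraries, and IAA9-like (XM_008446743.1), an auxin response repressor, at 2.52.

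**Figure D5:**
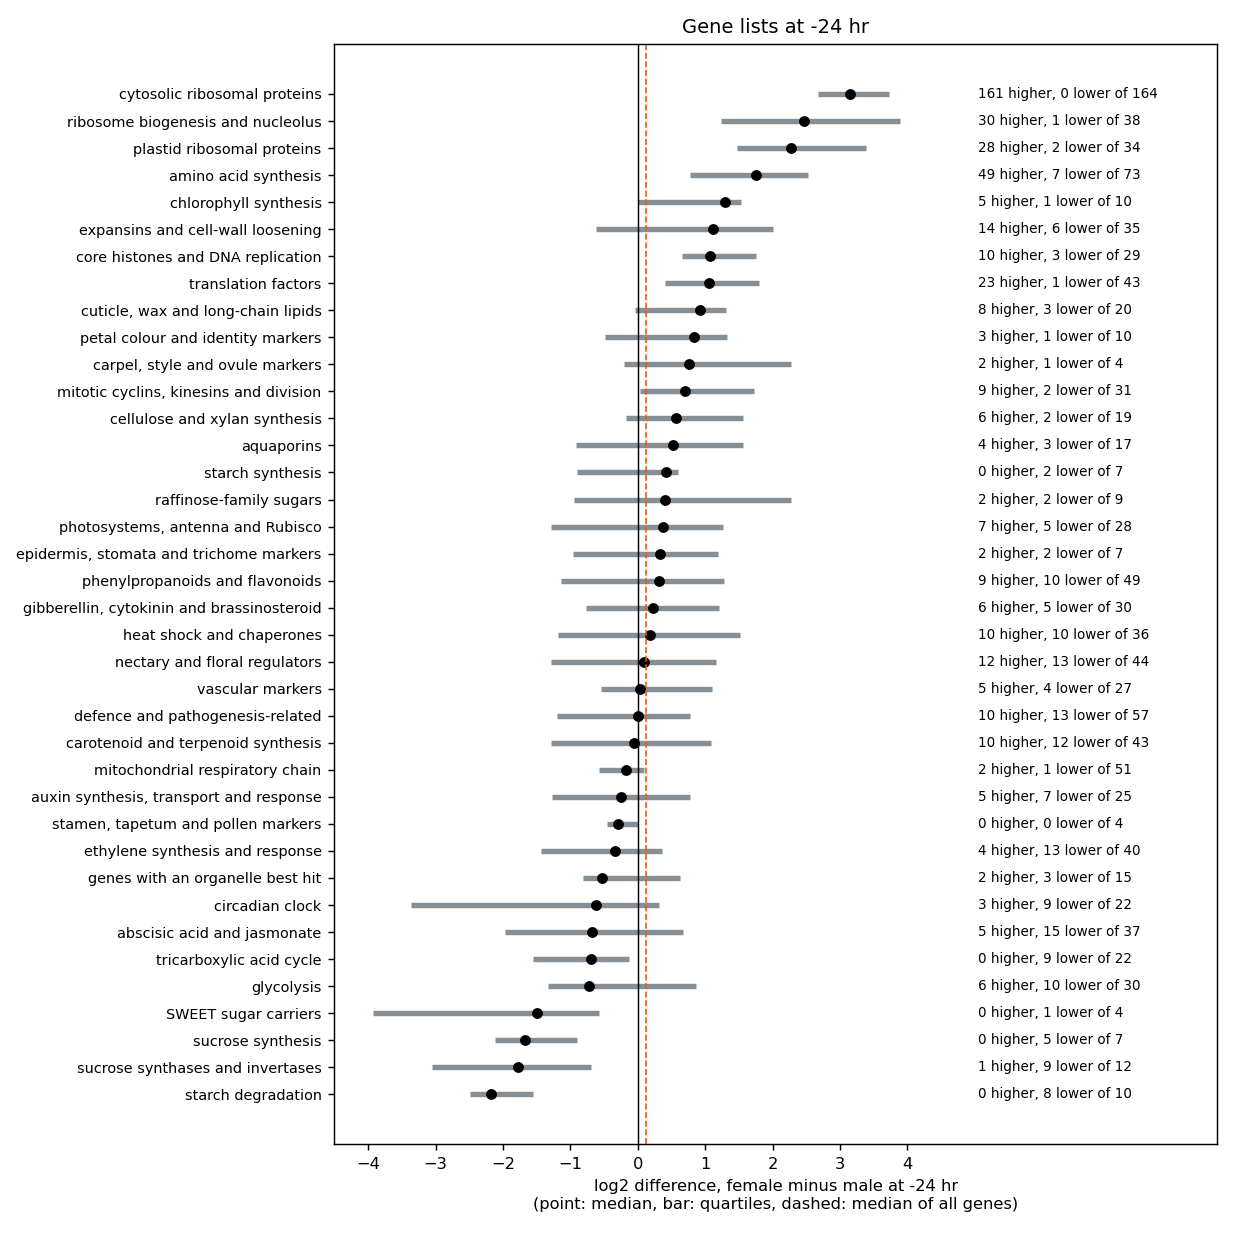
Median (point) and quartiles (bar) of the log2 difference, female minus male at -24 hr, for each gene list of at least 4 members, with the number of members called higher and lower at the right and the median of all genes as a dashed line. Cytosolic ribosomal proteins have the highest median (3.15) and starch degradation the lowest (-2.17).

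Carotenoid and phenylpropanoid genes held calls each way. Of 43 carotenoid and terpenoid genes, 10 were higher (23.3%) and 12 lower (27.9%), against 24.6% and 16.6% of all genes. Phytoene synthase (Z37543.1), the entry to carotenoids, had 7, 14 and 7 in female libraries and 657, 475 and 327 in male libraries, and beta-carotene hydroxylase 2 (XM_008439103.1) had 15, 12 and 53 against 5900, 9272 and 6910. Of 49 phenylpropanoid and flavonoid genes, 9 were higher (18.4%) and 10 lower (20.4%), shares near those of all genes. A phenylalanine ammonia-lyase (XM_008465747.1), the entry to phenylpropanoids, was higher, with 831, 1287 and 1168 in female libraries and 16, 10 and 17 in male libraries, and dihydroflavonol-4-reductase (XM_008454096.1) was lower, at -4.12. Gene copies with 1 description also split: a caffeoylshikimate esterase (XM_008449259.1) was higher at 3.74 and another (XM_008467558.1) lower at -4.22.

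Membrane carriers were among the largest differences each way. The aquaporin PIP2-7 (XM_008449725.1), a plasma-membrane water channel, had 5439, 3430 and 3253 in female libraries and 87, 113 and 20 in male libraries. Of all 17 aquaporins, 4 were higher (23.5%) and 3 lower (17.6%), near the shares of all genes, and without female replicate 1 the counts were 3 and 1. Sulfate transporter 3.1-like (XM_008453082.1) had 2596, 3149 and 5886 in female libraries and 64, 113 and 34 in male libraries. The lysine histidine transporter 1-like gene (XM_008451841.1) had 100, 90 and 151 in female libraries and 19812, 17071 and 19822 in male libraries. Members 5.2 (XM_008449168.1) and 7.3 (XM_008467720.1) of the NRT1/PTR family of nitrate and peptide carriers were lower by -8.66 and -7.98. The mitochondrial ubiquinol oxidase (XM_008467260.1), the alternative oxidase of plants, is not a carrier but was also among the largest differences. It had 180, 290 and 643 in female libraries and 36379, 36685 and 36895 in male libraries.

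Clock genes were lower in female nectaries in 9 of 22 (40.9%, against 16.6% of all genes) and higher in 3 (13.6%, against 24.6%). Without female replicate 3 the counts were 10 and 1. A transcript variant of LHY-like (XM_008461606.1), a morning-phased repressor in Arabidopsis, had 54, 62 and 37 in female libraries and 4160, 3929 and 2541 in male libraries. At -15 hr it was low in both sexes, at 39 to 104 in female and 38 to 113 in male libraries, and at 0 hr it was high in both, at 6760 to 13910 and 2663 to 12742. PRR95 (XM_008439441.1) differed by -3.97 and EARLY FLOWERING 3 (XM_008464158.1) by -2.15. The clock hour at which each sex was collected is not given per library, and its part in the other differences was not tested. Transcript variants of 1 locus can share reads, so the 3 LHY-like entries are not independent.

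Markers of tissues that could be dissected along with the nectary were compared in the same libraries. The 4 carpel, style and ovule markers summed to 1470 to 2040 in female and 1169 to 1337 in male libraries. Of them, 2 were called higher (50%, against 24.6% of all genes) and 1 lower (25%, against 16.6%). A BEL1 homolog of ovule development (XM_008439096.1) had 165, 241 and 659 in female libraries and 15, 9 and 5 in male libraries. The member called lower, SPATULA-like (XM_008446382.1), had 164, 142 and 267 in female libraries and 414, 383 and 523 in male libraries. That call was lost without female replicate 1 or 2, or male replicate 1 or 3. None of the 4 stamen and pollen markers was called, and they summed to 1965 to 2295 in female and 2438 to 3160 in male libraries. Petal markers summed to 7149 to 13131 in female and 14066 to 15310 in male libraries. Of these 10 genes, 3 were called higher (30%, against 24.6% of all genes) and 1 lower (10%, against 16.6%), with a median log2 difference of 0.83. Those shares are near the ones of all genes, and under quantile normalization 1 was higher and 1 lower. The member called lower, a chromoplast-specific carotenoid-associated protein (XM_008441828.1), had 1912, 2824 and 4286 in female libraries and 8419, 8652 and 9198 in male libraries. Vascular markers summed to 6883 to 8756 in female and 7760 to 9184 in male libraries. Epidermal markers summed to 1699 to 3936 in female and 1348 to 1420 in male libraries. These lists are short and hold some genes that are not tissue-specific, and the part of other tissues in the differences was not tested.

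The difference between female and male nectaries at -24 hr was set against the later stages for every gene. The test of the sex difference at -24 hr against its mean over the later stages called 2093 genes (23.6%) on the female side and 1746 (19.7%) on the male side, at an adjusted p under 0.05. That test uses the same -24 hr values as the calls above and is not independent of them. Of the 1305 genes called at +9 hr, 619 (47.4%, and 16.9% of those called at -24 hr) were also called at -24 hr, against 41.2% of all genes, 423 in the same direction and 196 in the opposite one. Of the 12 genes called at -15 hr, 4 were called in the same direction at -24 hr and 4 in the opposite one.

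The 12 genes, named after their values were seen, held both kinds. WRKY69 (XM_008456060.1) was lower in female nectaries at both stages, with 4, 4 and 15 against 289, 108 and 170 at -24 hr and 40 to 43 against 223 to 373 at -15 hr. The GABA transporter 1-like gene (XM_008448565.1) turned round, with 0, 2 and 0 in female libraries against 48, 81 and 92 in male libraries at -24 hr, and 270 to 1146 against 16 to 34 at -15 hr. A dihydrodipicolinate synthase of lysine synthesis (XM_008439924.1) turned the other way, with 1963, 1842 and 992 against 340, 373 and 265 at -24 hr, and 270 to 319 against 1017 to 1403 at -15 hr. Of all genes, SHI RELATED SEQUENCE 1 (XM_008457037.1) alone was called in the same direction at all 4 stages, higher in female nectaries.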

How the data were processed

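Hand-dissected nectaries were sequenced as TruSeq RNA v2 libraries. The authors assembled reads with Trinity, matched contigs to melon by blastn, and deposited a score for each gene and library, namely read counts normalized to the upper quartile and rounded to whole numbers. No source used here names the counting tool. A further 27 sheets hold the authors' own selections of genes by stage and were not used, nor were the mean, SD and ratio columns of the main sheet.

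Values were analysed as log2(value + 1) with limma (version 3.58.1, R 4.3.3), 1 mean per sex and stage over all 23 libraries, with a mean-variance trend. P-values were adjusted over 8861 genes by Benjamini-Hochberg, and genes were called at an adjusted p under 0.05 and at least 2-fold. Fold changes on this scale understate the change of low genes. No filter on low values was applied. The fit was tested on simulated data. Figures were drawn with matplotlib 3.10.9.

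The genes named are those the study names in its text, starch and sucrose lists or primer list, the 15 largest differences each way (no overlap, mean of at least 500, described product, 1 per locus), up to 3 called members each way from each of 39 lists, and the 5 highest genes of each sex. Members and lists were chosen with earlier results of these data known. Alternatives were another pseudocount, a filter on low values, other scalings, only the 6 libraries, no trend, a replicate block, and leaving out each library.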

Additional observations from a re-analysis of the deposited data

Results flagged for a closer look

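The results below had a sex difference at -24 hr that differed from the mean sex difference at -15, 0 and +9 hr (limma, adjusted p under 0.05), among 2093 genes in which it was more positive and 1746 in which it was more negative. Values are that difference of differences on the log2 scale.

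Those of nectar sugar were more negative at -24 hr: MYB305 by -9.64, SWEET9 by -7.53, CWINV4 by -3.06, BAM1 by -5.38, AMY3 by -4.19, pullulanase 1 by -2.39, DPE2 by -1.96, the maltose exporter MEX1 by -1.79 and neutral alpha-glucosidase C by -1.48. Branching enzyme 1 followed at -1.62, sucrose-phosphate synthase 1 at -1.25, UDP-glucose pyrophosphorylase at -1.80, sucrose synthase 5 at -4.02, SIP2 at -3.38 and ERD6-like 16 at -10.38.

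Among the other large differences, the following were more negative: XM_008457721.1, like a resveratrol methyltransferase (-10.86), zinc-finger homeodomain protein 9 (-10.48), TIFY 5A-like (-10.12), TIC 32 (XM_008444344.1, -9.78), UDP-glycosyltransferase 82A1 (XM_008466454.1, -8.58), beta-carotene hydroxylase 2 (-8.39), WNK11 (XM_008450856.1, -8.16), lysine histidine transporter 1-like (-7.29), NRT1/PTR members 5.2 (-7.23) and 7.3 (-6.29), CYP72A219-like (XM_008445183.1, -6.96) and the ubiquinol oxidase (-5.84).

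More positive were an inactive leucine-rich repeat kinase (XM_008458409.1, 8.64), the LysM protein 2 (XM_008449645.1, 6.39), a mediator subunit 36 gene (XM_008468987.1, 6.17), PIP2-7 (6.05), methionine gamma-lyase (JX673982.1, 5.90), threonine synthase 1 (5.54), a subtilisin-like protease (XM_008442124.1, 5.46), TSJT1-like (XM_008441655.1, 5.28), nucleolar protein 56-like (5.22), phenylalanine ammonia-lyase (4.96), sulfate transporter 3.1-like (4.83), the heat stress factor A-2d-like (XM_008451146.1, 4.79) and SPL3 (3.35). CDKB2-2 stood at 6.30, a value that depends on the pseudocount because it was listed at 0 in the male libraries at -24 hr. Of the other genes named by the rules or after their values were seen, 147 differed likewise.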

How the results depend on the processing

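The counts of genes higher, lower and unlike the later stages kept within 1.5 times of their values under every alternative run. Leaving out 1 library at a time gave 1925 to 2229 genes higher, 1258 to 1632 lower and 3094 to 4057 unlike the later stages. With the replicate number as a block, 2174 were higher, 1474 lower and 3787 unlike. Same-numbered libraries did not deviate together (r of -0.01, 0.03 and 0.00), so the numbers were not taken as pairs. No gene was called in opposite directions between the reported fit and an alternative. Directions that reversed belonged to genes that were not called: the uncharacterized gene XM_008439923.1 (-0.06 with median-ratio scaling, -0.48 with quantile normalization, and -0.32 to 0.34 without single libraries), galactosyltransferase 6 (0.36 with quantile normalization) and phosphoglucan water dikinase (0.36 with quantile normalization). Of 229 named genes, quantile normalization ended the call of 17 and median-ratio scaling of none, and the cause was not tested. The mean distance between the sexes at -24 hr was 1.79, and 1.60 with a pseudocount of 10, chosen after seeing the data. The spread between 3 libraries per sex limits every value, most in female nectaries, and the raw depth was not used here.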

Other observations

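Lists that were not described above held calls in both directions, to be read against the 24.6% of all genes called higher and the 16.6% called lower. Photosystem and antenna genes were higher in 7 (25%) and lower in 5 (17.9%) of 28, near those shares, and under quantile normalization 3 were higher and 8 lower. Photosystem I subunit N (XM_008442835.1) had 139, 136 and 125 in female libraries and 52, 43 and 34 in male libraries, a call that quantile normalization ended (log2 difference 0.89), while the antenna protein 8 (XM_008452076.1) had 15, 16 and 36 in female libraries and 647, 452 and 386 in male libraries. Leaving out male replicate 1 left 2 photosystem and antenna genes lower, and leaving out male replicate 2, female replicate 1 or female replicate 2 left 3. Chlorophyll synthesis was higher in 5 and lower in 1 of 10, with 3 higher under quantile normalization or without male replicate 3, and protochlorophyllide reductase (XM_008454257.1) had 394, 343 and 152 in female libraries and 20, 32 and 32 in male libraries. Cuticle, wax and long-chain lipid genes were higher in 8 and lower in 3 of 20, with 5 higher under either other scaling and without female replicate 2 or male replicate 3. Cellulose and xylan genes were higher in 6 and lower in 2 of 19, with 3 each way under quantile normalization.

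Heat shock and chaperone genes were higher in 10 and lower in 10 of 36, with 6 lower without female replicate 1. The mitochondrial heat shock 70 kDa protein (XM_008456224.1) had 9201, 7673 and 2905 in female libraries and 1438, 1091 and 1048 in male libraries, and a class V heat shock protein of 15.4 kDa (XM_008442954.1) differed by -4.43 on the log2 scale. Defence genes were higher in 10 and lower in 13 of 57, auxin genes in 5 and 7 of 25 (2 and 8 without female replicate 3 or male replicate 3), gibberellin, cytokinin and brassinosteroid genes in 6 and 5 of 30, and raffinose-family genes in 2 and 2 of 9. Genes with an organelle best hit in Arabidopsis were higher in 2 and lower in 3 of 15, but their melon descriptions are of nuclear genes, so this list is no check of organelle RNA. Epidermal markers were higher in 2 and lower in 2 of 7, petal markers in 3 and 1 of 10, and vascular markers in 5 and 4 of 27.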
